A study of Mus musculus with 24 samples.

Results

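The 48 genes described here carry out or control DNA replication in S phase, and they were measured in mouse CD4 T cells of 2 knockouts, of Acly and of Pdha1, each beside its own wild type. Both genes encode enzymes that supply acetyl-CoA. They were taken as a fixed list of symbols covering origin licensing, origin firing, the polymerases, the sliding clamp and its loader, the single-strand binding complex RPA, Okazaki fragment processing, the supply of deoxynucleotides (dNTPs), chromatin factors of S phase and regulators of entry into it. All 48 matched a row by Ensembl identifier, of 46981 rows in the deposited table. The rule uses no measured value.

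RNA was sequenced in 24 libraries, in 8 groups of 3. In the Acly cohort the knockout (KO) mice were CD4-Cre Aclyfl/fl and lack ATP citrate lyase where the promoter of Cd4 drives Cre. In the Pdha1 cohort the KO mice were Pdha1fl/fl CD4CreERT2, a Cre that tamoxifen switches on, and the labels give no schedule for its induction. Each cohort had its own wild type (WT), and every genotype was taken at rest or after 24 h of activation through CD3 and CD28. All groups were labelled as CD4 T cells and all cultures had 15% fetal bovine serum, 2 mM glutamine and antibiotics. The labels do not say whether the replicates came from separate mice, so every p-value reflects only how far these samples spread, which may be technical. In bulk samples, fewer cells in S phase and less RNA per cell cannot be told apart.

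A resting T cell has left the cell cycle, and activation through its receptor makes it enter S phase after a long first G1. During G1 the origin recognition complex, Cdc6 and Cdt1 load the ring-shaped MCM helicase onto DNA, which is called licensing, and Cdc45 and the GINS complex later turn that ring into a moving helicase. The clamp Pcna, loaded by replication factor C, then holds the polymerases on their template, while ribonucleotide reductase (Rrm1 with Rrm2), Tyms, Tk1 and Dut provide and guard the dNTPs. Many of these genes are known targets of E2F transcription factors.

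The libraries held 388902 to 1087675 recovered counts, and 1 count was worth 0.677 to 2.28 RPM (reads scaled to a total of 1000000). A count of 0 therefore allowed a level of up to 2.03 to 6.83 RPM, called the floor here, which covers counting error alone. Of 15 T cell genes, all lay above the floor in every library of the Acly cohort, and 10 to 15 did in the Pdha1 cohort. Summed genes of B cells (13 genes) were at 56.9 to 161 RPM in the Acly cohort and 155 to 389 RPM in the Pdha1 cohort, and those of CD8 and NK cells (10 genes) and of myeloid cells (12 genes) were at 33.5 to 88.9 RPM and 56.1 to 137 RPM over all libraries. Summed red cell and platelet genes (12 genes) reached 604 to 32790 RPM in the Pdha1 cohort, while they lay between 28.2 and 1219 RPM in the Acly cohort. Odorant and pheromone receptor genes (1893 genes), whose known sites of expression lie in the nose, summed to 95847 to 110185 RPM in resting libraries of the Acly cohort and to 30239 to 41180 RPM in activated ones. They serve as a measure of background, and it moved with activation without overlap. Acly stood at 11.3, 10.6 and 15 RPM in activated Acly KO libraries against 104, 111 and 109 RPM in their WT, and at rest both genotypes had 1.06 to 9.87 RPM. Pdha1 stood at 30.4, 27.4 and 20 RPM in activated Pdha1 KO libraries against 84.7, 40.8 and 5.35 RPM in their WT, so the activated groups overlapped through WT activated 3, as resting groups did, and the level of Pdha1 does not separate the genotypes here.

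In the Pdha1 cohort 2 libraries went against their labels. The library labelled KO resting 3 had 2041 RPM of summed T cell genes and 66696 RPM of receptor genes, where the other 2 of its group had 571 and 269 RPM and 105159 and 109203 RPM. The library labelled WT activated 3 had 545 RPM of T cell genes and 106049 RPM of receptor genes, where WT activated 1 and 2 had 3648 and 2436 RPM and 26547 and 72700 RPM. Results of this cohort are given with and without both. These 2 libraries were picked with values of these data known.

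**Figure D1:**
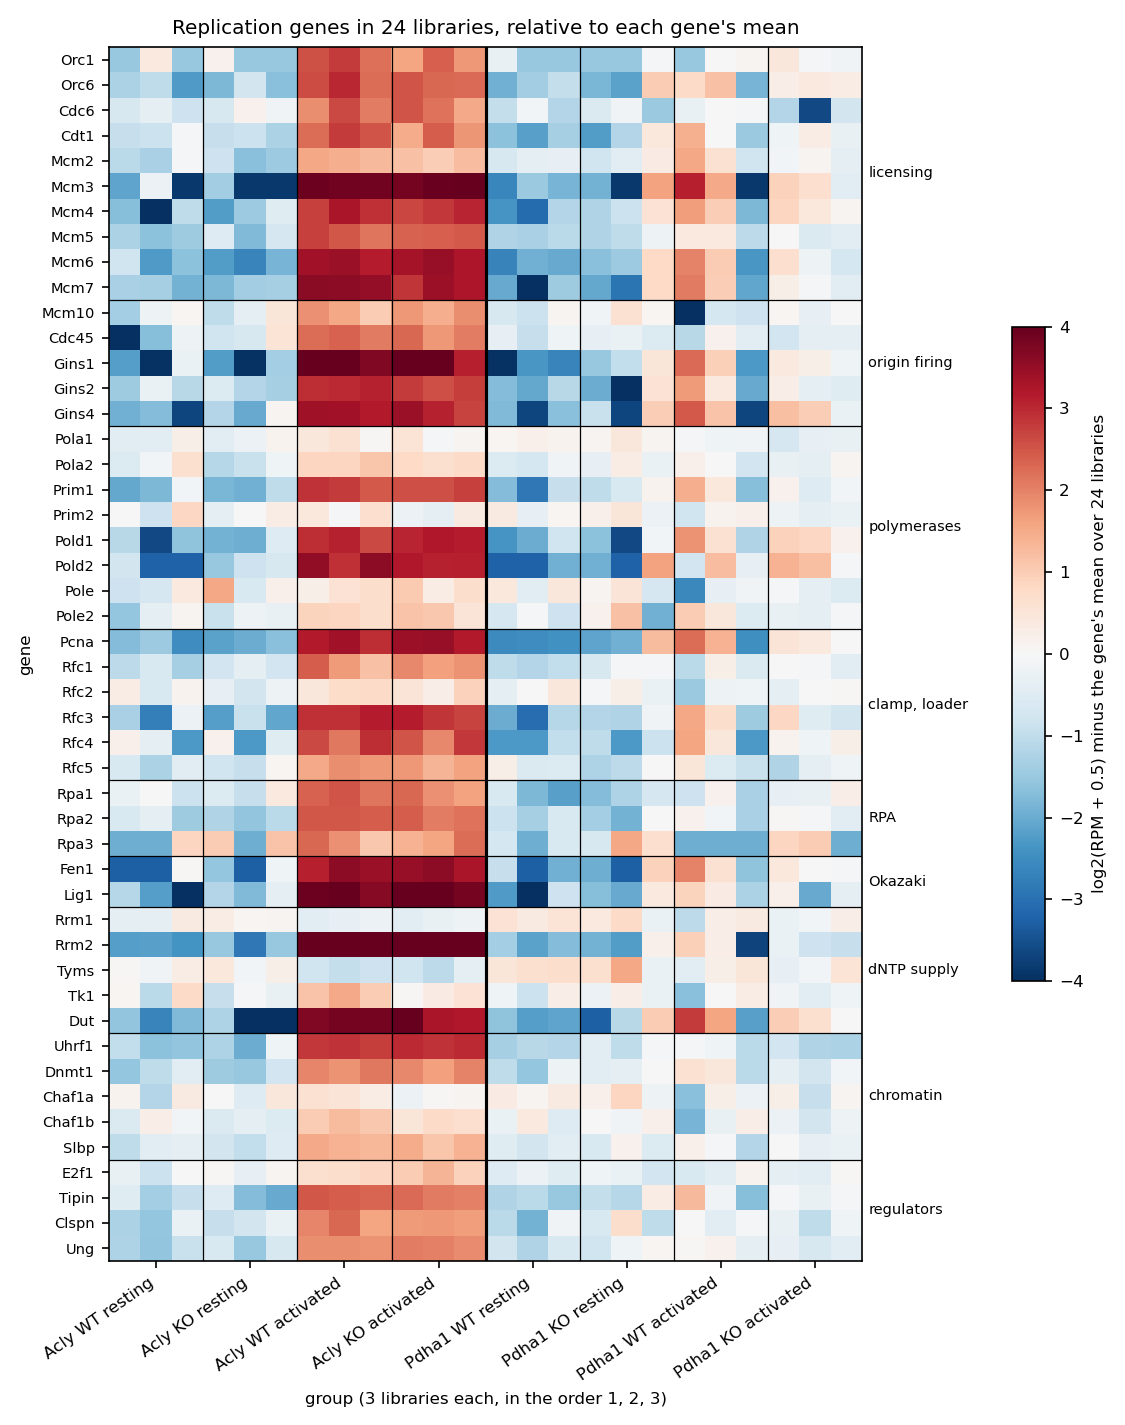
Level of each of the 48 genes (rows, grouped by role) in each of the 24 libraries (columns, grouped by cohort, genotype and state), as log2(RPM + 0.5) minus that gene's mean over the 24 libraries; the colour scale stops at 4 either way, so larger values share the end colours. Activated libraries of the Acly cohort stand out in nearly all rows, with Rrm1, Tyms, Prim2, Pola1, Pole and Chaf1a as pale ones, and in the Pdha1 cohort KO resting 3 and WT activated 3 differ from their groups.

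Taken over all 48 genes, the mean log2(RPM + 0.5) was 2.96 ± 0.22 (SD, n = 3) in resting Acly-cohort WT and 6.21 ± 0.09 in activated WT. In the Acly KO it was 3.09 ± 0.33 at rest and 6.06 ± 0.04 after activation. Resting and activated libraries of that cohort did not overlap. Activated KO libraries (6.03 to 6.11) lay just below activated WT libraries (6.12 to 6.29), and resting genotypes overlapped. In the Pdha1 cohort the same mean was 2.91 ± 0.31 in resting WT, 3.46 ± 0.59 in resting KO, 3.88 ± 0.83 in activated WT and 3.92 ± 0.18 in activated KO. The 3 activated WT libraries of that cohort spanned 2.93 to 4.36, so that their lowest lay within the resting range. No member was at 0 in any activated library of the Acly cohort, while 4 to 6 of the 48 were at 0 in each resting WT library there. In the resting KO libraries 0 to 7 were. Resting libraries of that cohort also held fewer counts (517689 to 668894) than activated ones (806545 to 1087675).

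Activation of WT cells in the Acly cohort raised 42 of the 48 genes and lowered 1, Tyms, by limma at an adjusted p under 0.05. Over all 31311 genes tested, 21.4% were called higher and 23.8% lower. In 42 members every activated library lay above every resting one, and in 1 below, against 23.1% and 28.8% of all genes. The median change of the 48 was 3.19 on the log2 scale, where that of all genes was -0.61. In the Acly KO the numbers were 40 higher and 1 lower, with a median of 2.91 against -0.67 for all genes, of which 20.7% were called higher and 26.7% lower. All pairs of libraries were higher in 42 members and lower in 2, against 22.6% and 33.2% of all genes. The 40 raised in the KO were all raised in WT, and the 2 raised in WT that were not called in the KO were Rpa3 and Tk1. The balance moved with the scaling. Of all genes called in WT, 47.4% were higher as deposited, 61.1% with TMM-style scaling, 63.5% by edgeR and 68.2% by DESeq2, with medians of all genes at -0.33, -0.31 and -0.42. With the receptor sum as a covariate, which the state fixes almost wholly in this cohort, limma called 1 member in WT and 0 in the KO. The share of all genes called with it is not given here, so this drop cannot be read as particular to the members.

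**Figure D2:**
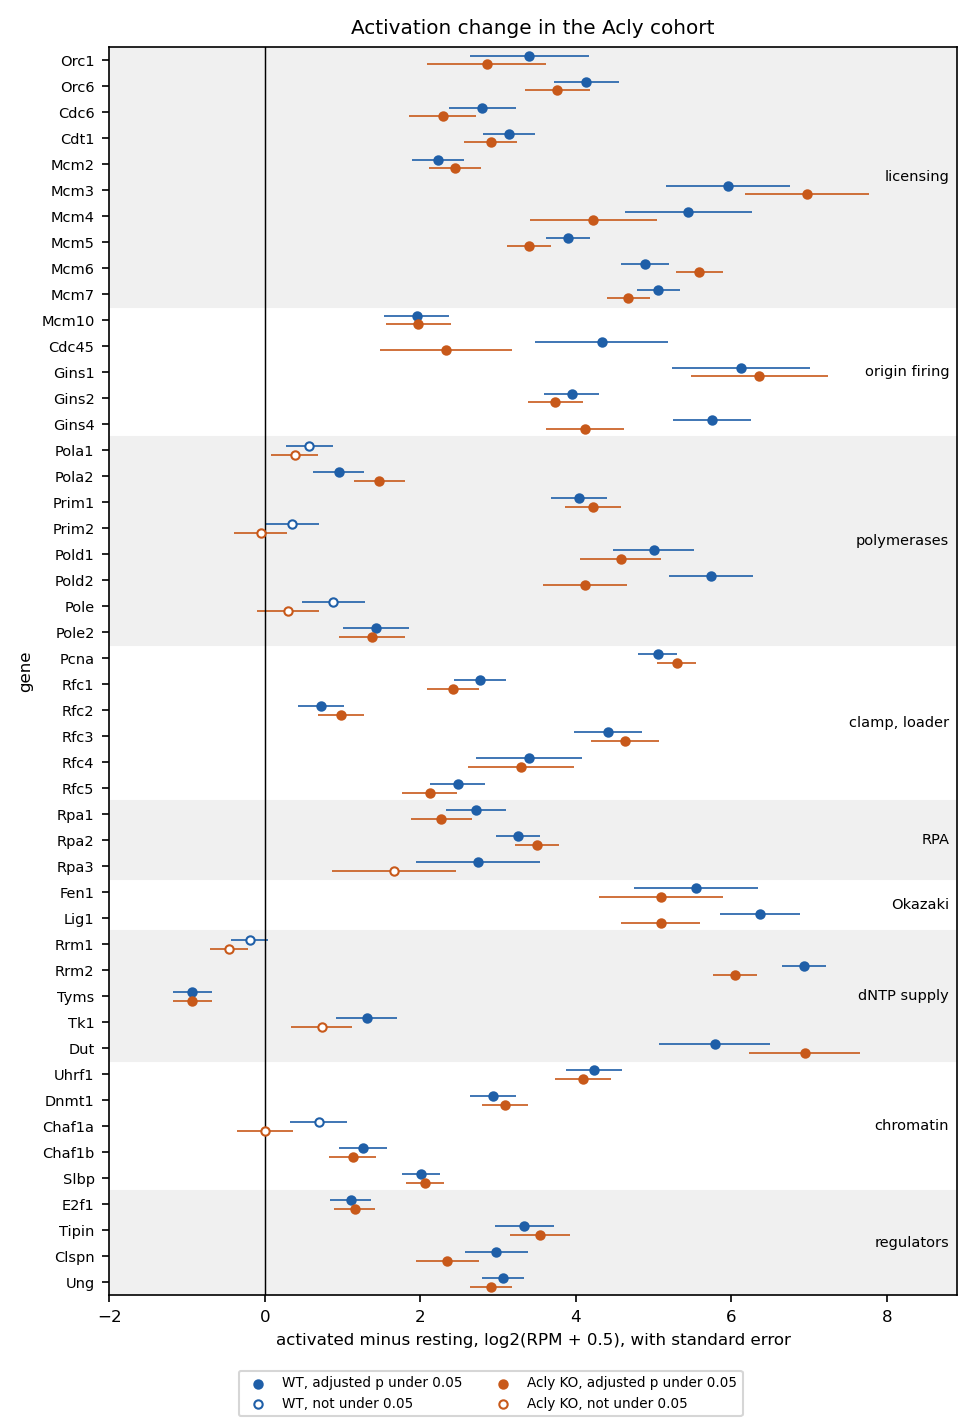
Activated minus resting change of each of the 48 genes in the Acly cohort, on the log2(RPM + 0.5) scale, in WT (blue) and Acly KO (orange), with bars for the standard error of the limma fit; filled points passed an adjusted p of 0.05. Open points belong to Pola1, Prim2, Pole, Rrm1 and Chaf1a in both genotypes and to Rpa3 and Tk1 in the KO, and Tyms lies left of 0 in both.

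All 10 licensing genes rose with activation in both genotypes, with medians of 4.02 in WT and 3.58 in the KO. Mcm3, a subunit of the MCM ring, changed most. It was at 1.16, 5.64 and 0 RPM in WT at rest, then at 109, 105 and 104 RPM in activated WT. In the KO it went from 2.28, 0 and 0 RPM to 103, 111 and 118 RPM. The groups were far apart, and the fitted changes were 5.95 ± 0.80 in WT (limma adjusted p = 4.41e-05) and 6.97 ± 0.80 in the KO (adjusted p = 1e-05). Mcm2, another subunit of the ring, changed least in WT. It went from 11.6, 9.87 and 23.9 RPM to 73.4, 68.6 and 61.2 RPM in WT, and from 13.7, 7.45 and 8.83 RPM to 56.4, 49.7 and 59.2 RPM in the KO. Its changes of 2.23 ± 0.34 and 2.44 ± 0.34 had adjusted p-values of 7.57e-07 and 1.13e-07. In the KO the smallest licensing change was that of the loader Cdc6, at 2.29 ± 0.43 (adjusted p = 3.35e-05). Mcm6 and Mcm5, whose upstream sequences follow, both rose in both genotypes, Mcm6 by more. Mcm6 went from 16.3, 5.64 and 8.94 RPM to 304, 318 and 259 RPM in WT, and from 5.71, 4.26 and 7.57 RPM to 292, 328 and 276 RPM in the KO (4.89 ± 0.31 and 5.59 ± 0.31). Mcm5 rose by 3.90 ± 0.28 in WT and by 3.39 ± 0.28 in the KO, reaching 202 to 303 RPM in activated libraries of both. The remaining subunits Mcm4 and Mcm7 rose by 5.45 and 5.06 in WT, the origin subunit Orc6 by 4.13 and the loader Cdt1 by 3.14. The ATPase Orc1 was low throughout: it was at or under the floor in all 3 libraries of 6 groups, and at 7.98, 9.48 and 6.17 RPM in activated Acly-cohort WT and 3.78, 7.06 and 4.28 RPM in activated Acly KO.

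Because these genes moved together, the windows before their start sites were searched for the core of the E2F site. The RefSeq table of promoters on GRCm38.p6, which holds 250 bases before to 50 after each start, had 40 of the 48 genes. The core was taken as TTTCCCGC, TTTGGCGC, TTTCGCGC or TTTGCCGC on either strand, and matches could overlap. It was found for 15 of the 40 genes (37.5%), where 2.60% of 27025 genes in the table had it. In the wider list of other replication genes described below, 16 of 48 had it (33.3%), so it was not particular to the members. Of genes of G2 and mitosis, 1 of 35 had it (2.86%). The 15 members with it included Mcm3, Mcm5, Mcm6, Mcm7, Orc1, Cdc6 and Cdt1 of the licensing genes, and also Lig1, Uhrf1 and Dnmt1. The 250 bases before the start are shown for Mcm5 and Mcm6, which carry several matches, and for Rrm2, which carried none and had the largest activation change of the 48 in WT. Capitals mark the E2F cores.
Mcm5, chr8:75109259-75109508, plus strand: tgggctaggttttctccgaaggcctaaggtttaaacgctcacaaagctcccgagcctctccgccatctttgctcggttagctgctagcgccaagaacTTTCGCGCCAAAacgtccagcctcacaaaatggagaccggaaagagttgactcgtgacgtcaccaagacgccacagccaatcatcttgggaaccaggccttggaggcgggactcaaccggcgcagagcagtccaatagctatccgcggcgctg
Mcm6, chr1:128359706-128359955, minus strand: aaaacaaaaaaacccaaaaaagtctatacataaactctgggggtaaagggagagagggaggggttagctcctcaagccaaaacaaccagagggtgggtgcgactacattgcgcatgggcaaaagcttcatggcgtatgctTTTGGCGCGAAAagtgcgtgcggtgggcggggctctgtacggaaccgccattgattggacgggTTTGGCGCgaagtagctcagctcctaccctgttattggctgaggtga
Rrm2, chr12:24708004-24708253, plus strand: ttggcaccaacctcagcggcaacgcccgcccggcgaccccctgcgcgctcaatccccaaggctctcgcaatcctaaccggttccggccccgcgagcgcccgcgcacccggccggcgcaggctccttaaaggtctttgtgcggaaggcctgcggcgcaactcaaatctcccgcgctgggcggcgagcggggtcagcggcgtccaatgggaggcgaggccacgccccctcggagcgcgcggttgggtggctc

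In Mcm5 the capitals hold TTTCGCGC from position -153 and, overlapping it on the other strand, GCGCCAAA from -149, counted from the start site. In Mcm6 they hold TTTGGCGC from -110, GCGCGAAA from -106 on the other strand, and TTTGGCGC again from -47. The 15 genes with a match had a median WT activation change of 3.90 (14 raised, 0 lowered), and the 25 without had 2.74 (22 raised, 1 lowered). The ranges overlapped widely, from 0.57 to 6.37 and from -0.93 to 6.93. A CCAAT box, the letters CCAAT on either strand, was in 62.5% of the 40 genes and in 41.1% of all genes in the table. It was in 52.1% of the other replication genes and in 74.3% of the genes of G2 and mitosis. A match is a string of letters and says nothing of binding in these cells.

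Origin firing genes, which convert the loaded ring into the working helicase, all rose in both genotypes. The GINS subunit Gins1 changed most, from 1.16, 0 and 5.96 RPM to 122, 149 and 99.0 RPM in WT. The KO libraries went from 1.14, 0 and 2.52 RPM to 133, 156 and 65.7 RPM. Activated libraries were all far above resting ones, with changes of 6.13 ± 0.89 (limma adjusted p = 0.000239) and 6.36 ± 0.89 (adjusted p = 0.000174). Mcm10, which helps to start unwinding, changed least, by 1.95 ± 0.42 and 1.97 ± 0.42. It was at 3.48 to 10.4 RPM in resting WT and 20.3 to 36.0 RPM in activated WT. The GINS subunits Gins2 and Gins4 rose by 3.94 and 5.75 in WT and by 3.73 and 4.11 in the KO. Cdc45, which joins GINS on the ring, rose by 4.33 ± 0.85 in WT (adjusted p = 0.00195) and by 2.33 ± 0.85 in the KO (adjusted p = 0.045). It had 0, 2 and 6 counts in resting WT and 5, 6 and 12 in resting KO, so both changes rest on few resting counts. Activated libraries had 50, 69 and 51 counts in WT and 69, 40 and 41 in the KO, which overlap. The difference between the changes of Cdc45 was not called by limma.

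The polymerase genes fell into separate kinds. Of 8, 5 rose in each genotype: the primase subunit Prim1, the polymerase delta subunits Pold1 and Pold2, and, by less, Pola2 and Pole2. Pold2 changed most in WT, from 2.32, 0 and 0 RPM to 54.2, 34.9 and 55 RPM (5.74 ± 0.54, limma adjusted p = 1.38e-11). In the KO Pold1, the catalytic subunit of polymerase delta, changed most, from 1.14, 1.06 and 3.78 RPM to 49.5, 55.9 and 52.7 RPM (4.58 ± 0.52, adjusted p = 1.33e-09). The large subunits Pola1, Prim2 and Pole did not pass the test. Prim2, the large primase subunit, had 36.1, 19.8 and 64.3 RPM in WT at rest and 48.1, 34.9 and 57.7 RPM in activated WT, which overlap. Its change was 0.35 ± 0.34 in WT (adjusted p = 0.403) and -0.05 ± 0.34 in the KO (adjusted p = 0.913). Pola1, the catalytic subunit of polymerase alpha, was at 27.9 to 44.8 RPM and 38.9 to 58.1 RPM (0.57 ± 0.30, adjusted p = 0.117). Pole, that of polymerase epsilon, changed by 0.88 ± 0.40 (adjusted p = 0.0787). Resting libraries carried the higher receptor background, and its part in the resting levels of these 3 genes was not tested.

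Pcna, the sliding clamp, rose strongly and evenly. It was at 23.2, 28.2 and 13.4 RPM in WT at rest, then at 704, 811 and 606 RPM in activated WT. In the Acly KO it went from 17.2, 19.2 and 24.0 RPM to 834, 870 and 712 RPM. States did not overlap, and the changes were 5.05 ± 0.25 (limma adjusted p = 7.37e-20) and 5.30 ± 0.25 (adjusted p = 1.64e-20). The annotation holds pseudogenes of Pcna and Tyms, with which reads could be shared. All 5 loader genes rose too. Among them Rfc3 changed by 4.42 ± 0.44 in WT and 4.63 ± 0.44 in the KO, Rfc4 by 3.40 and 3.30, Rfc1 by 2.77 and 2.42, and Rfc5 by 2.48 and 2.12. Rfc2 changed least: it was at 47.8, 25.4 and 43.3 RPM and then at 54.2, 65.3 and 67.5 RPM in WT (0.72 ± 0.30, adjusted p = 0.0437). That call ended in WT under 11 of the alternatives, among them quantile normalization (0.17, adjusted p = 0.633) and leaving out resting WT 2 (0.44, adjusted p = 0.227), any of the 3 activated WT libraries, or activated KO 1.

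RPA coats single-stranded DNA, and Fen1 and Lig1 trim and join Okazaki fragments. Rpa2 went from 20.9, 25.4 and 11.9 RPM to 182, 183 and 178 RPM in WT (3.25 ± 0.29, limma adjusted p = 1.92e-12), and rose by 3.5 ± 0.29 in the KO. Rpa1, the large subunit, rose by 2.72 ± 0.39 and 2.27 ± 0.39. The small subunit Rpa3 was near the floor in all groups: in activated WT it was at 8.98, 6.32 and 3.52 RPM, and in resting WT at 0, 0 and 2.98 RPM. It was called in WT (2.74 ± 0.80, adjusted p = 0.00494) but not in the KO (1.66 ± 0.80, adjusted p = 0.0834), and those changes differed by -1.08 ± 1.13 (adjusted p = 1). Lig1 went from 3.48, 1.41 and 0 RPM to 135, 143 and 110 RPM in WT and from 3.43, 2.13 and 6.30 RPM to 152, 143 and 126 RPM in the KO. Its changes were 6.37 ± 0.51 (adjusted p = 5.45e-10) and 5.09 ± 0.51 (adjusted p = 2.33e-08). Fen1 rose by 5.54 ± 0.80 and 5.09 ± 0.80. Resting libraries of both genotypes were at or near the floor for these joining enzymes, so their folds rest on few resting counts.

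The dNTP genes moved in opposite ways. Rrm2, the regulatory subunit of ribonucleotide reductase that is made for S phase, is the gene of the largest WT change named above. It went from 6.96, 7.05 and 5.96 RPM to 799, 1013 and 822 RPM in WT. In the KO it went from 11.4, 4.26 and 11.4 RPM to 631, 541 and 567 RPM. Activated KO libraries were all below activated WT libraries, and both were far above rest, with changes of 6.93 ± 0.28 (limma adjusted p = 2.82e-22) and 6.05 ± 0.28 (adjusted p = 1.26e-20). Dut, which removes dUTP, rose by 5.79 ± 0.71 in WT and by 6.94 ± 0.71 in the KO, from at most 4.57 RPM in any resting library of the Acly cohort. Tk1, the salvage kinase of thymidine, rose in WT by 1.31 ± 0.39 (adjusted p = 0.00604). In the KO it changed by 0.73 ± 0.39 (adjusted p = 0.119), and the difference between these changes was -0.58 ± 0.55 (adjusted p = 1).

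Rrm1 and Tyms were the exceptions. Rrm1, the large reductase subunit, was at 98.4, 99.5 and 164 RPM in resting WT and 95.8, 102 and 110 RPM in activated WT, a change of -0.19 ± 0.24 (limma adjusted p = 0.514). In the KO it was at 157, 136 and 139 RPM at rest and at 96.6, 106 and 111 RPM after activation, which do not overlap, and its change of -0.46 ± 0.24 (adjusted p = 0.109) was called when the groups compared alone were fitted (adjusted p = 0.0365). Tyms, which makes the thymidine nucleotide, was at 115, 101 and 138 RPM in resting WT and 63.3, 57.3 and 63.0 RPM in activated WT. KO libraries had 150, 102 and 130 RPM at rest and then 63.3, 53.3 and 84.2 RPM. Resting libraries lay above activated ones in both genotypes, with changes of -0.93 ± 0.25 (adjusted p = 0.00261) and -0.93 ± 0.25 (adjusted p = 0.00255). The fall of Tyms was no longer called in WT with TMM-style scaling (-0.51, adjusted p = 0.074), by edgeR (-0.42, adjusted p = 0.178) or by DESeq2 (-0.52, adjusted p = 0.0545), nor in the KO with any of these. The receptor background went from 95847 to 110185 RPM down to 30239 to 41180 RPM in the same libraries. With it as a covariate, the change of Tyms turned to 0.54 in WT and 0.62 in the KO, neither called; the covariate and activation cannot be told apart in this cohort.

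Of the chromatin factors, Uhrf1, which guides the methyltransferase Dnmt1 to newly copied DNA, rose most. It went from 6.96, 4.23 and 4.47 RPM to 105, 109 and 99.9 RPM in WT (4.23 ± 0.36, limma adjusted p = 6.04e-13) and by 4.09 ± 0.36 in the KO. Dnmt1 itself rose by 2.94 ± 0.30 and 3.09 ± 0.30. Slbp, which binds the ends of histone mRNAs, rose by 2.01 ± 0.24 and 2.07 ± 0.24. The subunits of chromatin assembly factor 1 differed: Chaf1b rose by 1.26 ± 0.30 in WT, while Chaf1a was at 25.6, 9.87 and 29.8 RPM and then at 35, 33.3 and 28.3 RPM (0.69 ± 0.36, adjusted p = 0.114), and changed by -0.00 ± 0.36 in the KO.

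All 4 regulators rose. E2f1, the transcription factor, was already present at rest. It was at 47.8, 32.5 and 58.3 RPM in resting WT and 91.7, 96.1 and 104 RPM in activated WT. KO libraries had 60.9, 47.1 and 63.4 RPM at rest and then 120, 152 and 111 RPM. States did not overlap, and the changes were 1.11 ± 0.26 (limma adjusted p = 0.000681) and 1.15 ± 0.26 (adjusted p = 0.000401), the smallest of this group; with quantile normalization both ended (adjusted p = 0.154 and 0.102). Tipin, a fork protection factor, changed most, by 3.34 ± 0.38 and 3.54 ± 0.38. The checkpoint mediator Clspn rose by 2.98 ± 0.41 in WT, and Ung, which removes uracil from DNA, by 3.07 ± 0.27.

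A wider list of 59 other replication genes moved in the same direction, with 42 raised and 2 lowered in WT (median 1.69) and 39 raised and 3 lowered in the KO (median 1.61). The largest WT rises were those of Gmnn, the inhibitor of Cdt1, at 5.49 ± 0.67, the origin subunit Orc2 at 4.96 ± 0.54, the histone chaperone subunit Ssrp1 at 4.74 ± 0.37 and the histone chaperone Asf1b at 4.52 ± 0.38. In the KO they were those of Gmnn (6.14 ± 0.67), Ssrp1 (5.02 ± 0.37), the folate enzyme Shmt1 (4.53 ± 0.35) and the polymerase epsilon subunit Pole3 (4.40 ± 0.41). The repressor E2f7 (-1.18 ± 0.39) and the checkpoint kinase Atr (-0.88 ± 0.30) fell in WT, and E2f8 (-1.47 ± 0.38), Orc3 (-0.84 ± 0.34) and Atr (-0.77 ± 0.30) fell in the KO. Of 40 genes of G2 and mitosis, 26 were raised and 2 lowered in WT, with a median of 1.64, and 15 were raised and 2 lowered in the KO, with a median of 0.72. Over all genes the shares called higher and lower were 21.4% and 23.8% in WT and 20.7% and 26.7% in the KO. All of these calls are limma at an adjusted p under 0.05.

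**Figure D3:**
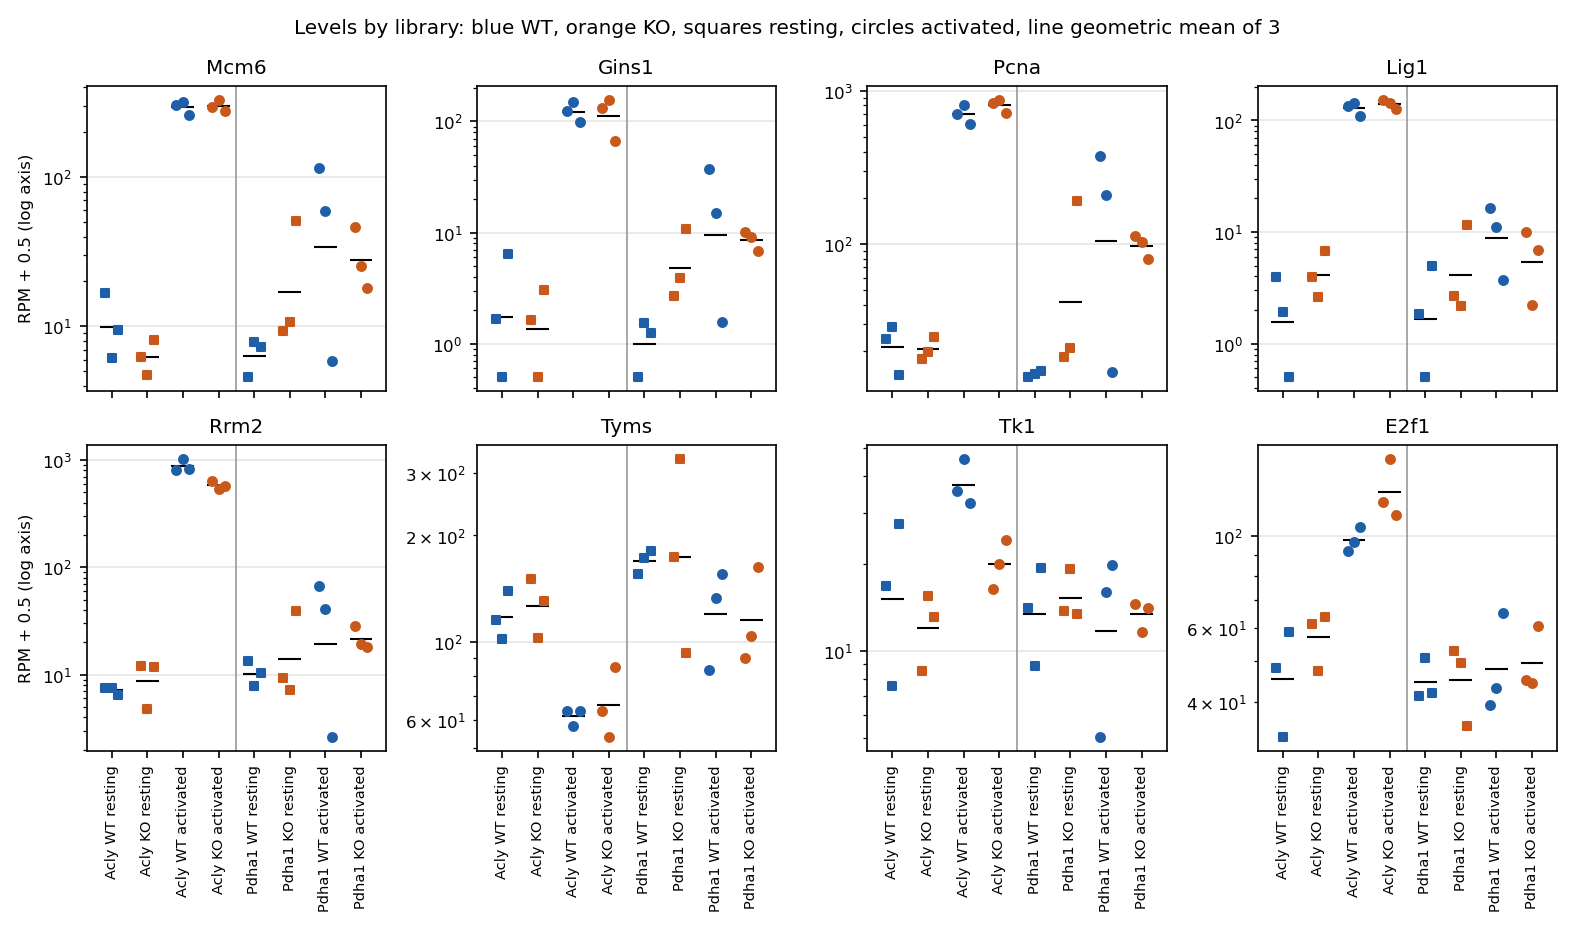
Levels of 8 of the genes in every library, as RPM + 0.5 on a log axis whose range differs between panels, by cohort, genotype and state; squares are resting, circles activated, and the line is the geometric mean of 3 libraries. Pcna, Mcm6, Gins1, Lig1 and Rrm2 are high in all 6 activated libraries of the Acly cohort, Tyms is low there, and Tk1 is lower and E2f1 higher in the activated Acly KO than in its WT.

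In activated cells none of the 48 genes differed between Acly KO and WT by limma (adjusted p = 1 for each), where 0% of the 31311 genes tested were called higher and 0.00639% lower. At an unadjusted p under 0.05 limma had 2 members, edgeR 4 and DESeq2 3, and edgeR and DESeq2 called 0 after adjustment. Over all 31311 genes limma had 1087 at that threshold. The numbers of all genes at it by edgeR and DESeq2 are not given, here or below. The median change was -0.13, against -0.05 for all genes. In 10 of the 48 every KO library lay below every WT library, where 7.38% of all genes tested did, and in 3 every KO library lay above, where 3.56% did. The 10 were Mcm2, Mcm7, Gins2, Pola2, Rpa2, Rrm2, Tk1, Chaf1a, Chaf1b and Tipin, and the 3 were Uhrf1, E2f1 and Ung.

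Ranked by p, the first 4 were Tk1, Rrm2, Cdt1 and Chaf1b. Tk1 was at 15.9, 19.4 and 23.6 RPM in activated KO and at 35, 45.3 and 31.8 RPM in activated WT. The difference was -0.91 ± 0.39. Rrm2, at the levels given above, differed by -0.59 ± 0.28. Cdt1 was at 44.9, 86.5 and 54.8 RPM against 76.5, 112 and 92.7 RPM (-0.63 ± 0.34), with 8 of 9 pairs of libraries lower in the KO. Chaf1b was at 36.4, 44.3 and 41.9 RPM against 53.2, 63.7 and 55 RPM (-0.48 ± 0.30). E2f1 lay on the other side, at 0.38 ± 0.26 with 9 of 9 pairs higher in the KO. No member of either kind passed the adjustment over all genes.

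**Figure D4:**
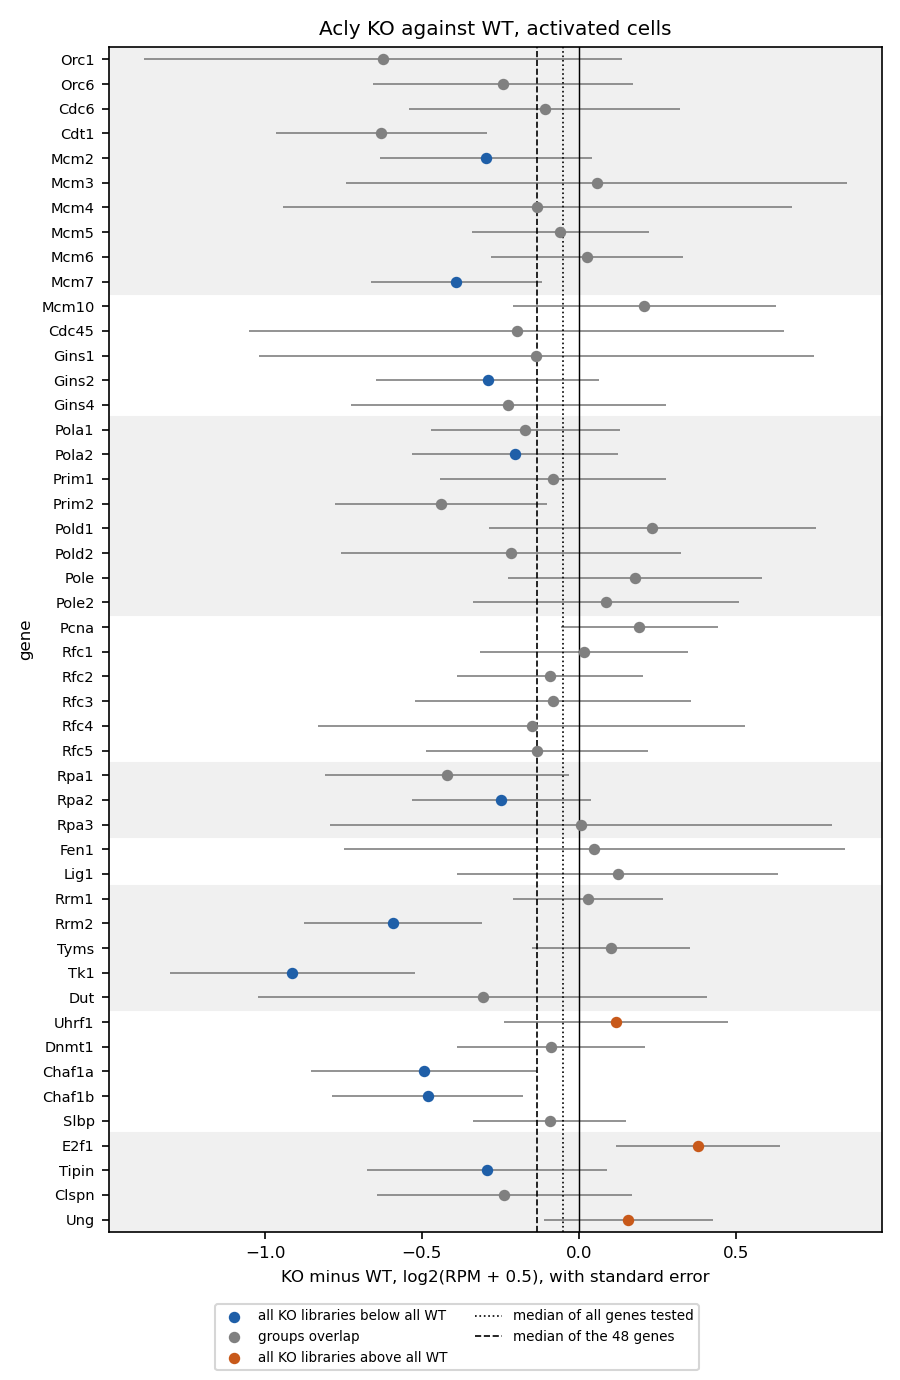
Acly KO minus WT in activated cells for each of the 48 genes, on the log2(RPM + 0.5) scale with the standard error of the limma fit; blue points have all 3 KO libraries below all 3 WT libraries, orange points all 3 above. Medians of the 48 genes (dashed, -0.13) and of all genes tested (dotted, -0.05) are both just below 0, and Tk1 and Rrm2 lie farthest left among the blue points.

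By role, the dNTP genes had the lowest median in this comparison (-0.31), followed by RPA (-0.25), firing (-0.20) and licensing (-0.19), and the Okazaki pair had the highest (0.09). Of the 59 other replication genes 0 were called, with a median of -0.17. By limma 0 of them had an unadjusted p under 0.05. The first by p were the helicase Recql4 (-1.29 ± 0.80), Mcmbp, which binds MCM subunits (-0.41 ± 0.25), Fbxo5, an inhibitor of the anaphase-promoting complex (-0.83 ± 0.54), and E2f3 (-0.72 ± 0.47). The G2 and mitosis genes had a median of -0.60, with 18 of 40 lower in all pairs, 10 at an unadjusted limma p under 0.05 and 0 called. Of the 15 T cell genes 9 were lower in all pairs, with a median of -0.38, and Thy1, a surface protein of T cells, fell (-1.28 ± 0.23, limma adjusted p = 0.0332). Their sums were 3738 to 4180 RPM in activated KO and 4563 to 5091 RPM in activated WT, without overlap, and their part in the differences of the replication genes was not tested.

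The ratio of Rrm2 to Pcna within a library was picked after the values were seen. It is a ratio of RPM values and not of transcript numbers. It was 1.13 to 1.36 in activated Acly-cohort WT and 0.622 to 0.797 in activated Acly KO. It was 0.154 to 0.198 in activated Pdha1-cohort WT and 0.186 to 0.253 in activated Pdha1 KO. The Acly cohort's activated groups did not overlap with each other or with those of the Pdha1 cohort, where KO resting 3 also had 0.206. Resting libraries, with few counts of both genes in most, had 0.250 to 0.444 in Acly-cohort WT and 0.222 to 0.666 in Acly KO. In the Pdha1 cohort they had 0.538 to 1 in WT and 0.206 to 0.499 in the KO. Resting libraries thus overlapped with activated Acly KO. With 3 libraries a group the exact two-sided permutation test cannot go below 0.1, which it reached for Acly KO against WT (0.343 after adjustment over 24 comparisons of ratios). Groups without overlap always give 0.1, so for a ratio picked after its values were seen this p-value adds no support. The test did not use the pairs of same-numbered libraries. The ratio of Mcm6 to Pcna also separated these groups, at 0.350 to 0.387 in activated Acly KO and 0.392 to 0.432 in its WT, with the same exact p of 0.1 (0.343 adjusted). The ratios of Uhrf1, Lig1, Mcm5 and Dut to Pcna overlapped between them.

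**Figure D5:**
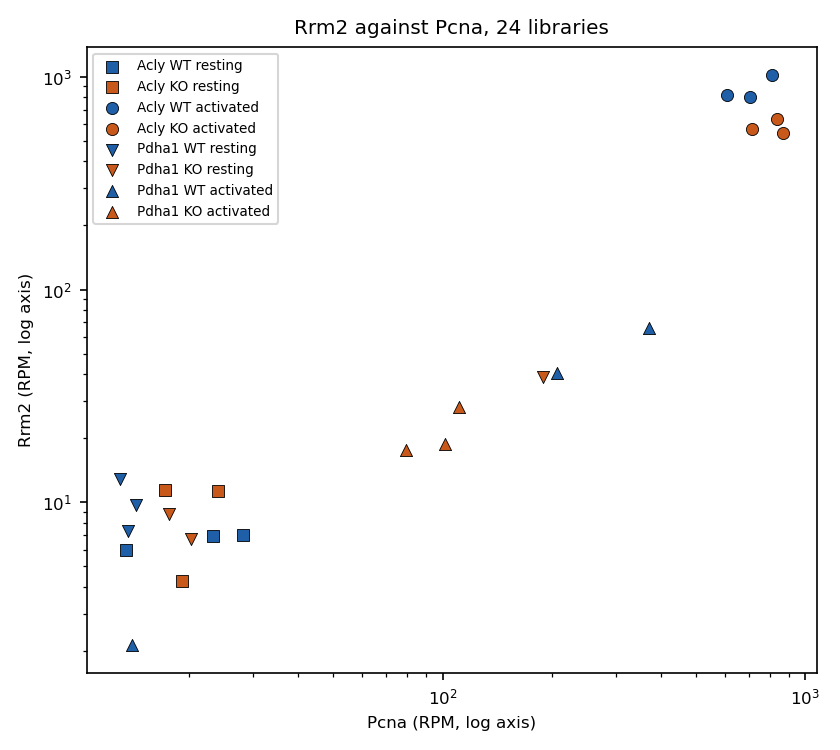
Rrm2 against Pcna in the 24 libraries, both in RPM on log axes, with a colour and a marker for each group. At similar Pcna levels, activated Acly KO (ratios 0.622 to 0.797) lies below activated Acly-cohort WT (1.13 to 1.36), and activated libraries of the Pdha1 cohort have ratios of 0.154 to 0.253.

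At rest 0 of the 48 genes differed between Acly KO and WT (limma, smallest adjusted p = 0.614), as did 0% of all genes. By limma 5 members were at an unadjusted p under 0.05 (1745 of all 31311 genes), and 2 each by edgeR and DESeq2, with 0 called by either. The smallest p-values belonged to Gins4 (1.41 ± 0.50), Lig1 (1.40 ± 0.51), Pold2 (1.40 ± 0.54) and Pola2 (-0.72 ± 0.33), with adjusted p-values of 0.614 to 0.81. For Gins4 the values were 2.28, 1.06 and 6.30 RPM against 1.16, 1.41 and 0 RPM, which is at or near the floor in nearly all of them. In resting WT 11 members were at or under the floor in all 3 libraries, namely Orc1, Orc6, Cdc6, Gins4, Pold1, Pold2, Rfc4, Rpa3, Fen1, Lig1 and Dut. In the resting KO there were 8, namely Orc1, Mcm3, Gins1, Pold1, Pold2, Rfc4, Rpa3 and Fen1. In no member were the groups without overlap, where 3.33% of all genes were higher in all pairs and 3.74% lower. Of the 59 other replication genes 0 were called by limma, with 3 at an unadjusted p under 0.05, and Chtf18 (1.22 ± 0.46), E2f8 (0.78 ± 0.38) and Pole3 (-0.81 ± 0.41) were among those with the smallest p-values.

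The interaction of Acly genotype and activation called 0 of the 48 genes by limma, and 0% of all genes, with 3 members at an unadjusted p under 0.05 (1313 of all genes), against 1 by edgeR and 0 by DESeq2, which called 0 as well. Gins4 (-1.63 ± 0.71), Rrm2 (-0.89 ± 0.40), Pold2 (-1.62 ± 0.77) and Lig1 (-1.28 ± 0.72) had the smallest p-values. For Gins4, Pold2 and Lig1 these differences rest on resting values near the floor, whereas for Rrm2 the resting groups overlapped and the activated KO libraries (541 to 631 RPM) lay below activated WT (799 to 1013 RPM), a difference limma did not call. The median was -0.22, against -0.09 for all genes. Of the 59 other replication genes 0 were called, with 2 at an unadjusted p under 0.05, and E2f3 (-1.56 ± 0.67), Pole4 (1.03 ± 0.52) and Chtf18 (-1.30 ± 0.65) were among those with the smallest.

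In the Pdha1 cohort activation changed 0 of 47 members in WT by limma, as 0% of the 30357 genes tested in either direction. The other member, Orc1, was too low to be tested. The median was 0.88 against -0.35 for all genes, 14 members and 4315 of all genes had an unadjusted p under 0.05, and the smallest adjusted p was 0.348. By edgeR there were 21 members under an unadjusted 0.05 and 0 called, and by DESeq2 25 and 11, where DESeq2 called 6.26% of all genes higher and 0.0725% lower. The libraries labelled activated WT were widely spread. Pcna was at 372, 206 and 13.9 RPM in activated WT and at 12.9, 13.6 and 14.3 RPM in resting WT. Mcm6 was at 115, 58.4 and 5.35 RPM against 4.07, 7.32 and 6.76 RPM. In both genes WT activated 3 was at or below the resting level and the other 2 were far above it. All pairs of libraries were higher in 5 members and lower in 2, against 5.87% and 10.3% of all genes.

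In the Pdha1 KO activation also changed 0 of 47 members and 0% of all genes by limma. The median was 0.17 against -0.03 for all genes, with 1 member and 873 of all genes under an unadjusted 0.05 (1 member by edgeR and 1 by DESeq2, with 0 called). Pcna was at 111, 101 and 79.1 RPM in activated KO and at 17.6, 20.3 and 189 RPM in resting KO. Rrm2 was at 28.2, 18.8 and 17.6 RPM against 8.8, 6.75 and 38.9 RPM. Here KO resting 3 lay above all activated KO libraries for both genes. Tyms was at 82.4, 133 and 155 RPM in activated and 155, 173 and 180 RPM in resting WT, with WT activated 3 at the lower end of the resting range. E2f1 was at 38.8, 42.7 and 64.7 RPM against 40.9, 50.4 and 41.5 RPM. Members at or under the floor in all 3 libraries were Orc1 and Rfc4 in every group of the cohort, Rpa3 in all but activated KO, and, in resting WT, also Mcm3, Gins1, Gins4, Pold2 and Fen1. All pairs were higher in 3 members and lower in 2, against 3.47% and 4.54% of all genes.

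KO resting 3 and WT activated 3 were picked with values of these data known. Leaving them out widens the contrast of states, since Pcna was at 189 RPM in KO resting 3 and 13.9 RPM in WT activated 3. The calls and p-values below partly reflect that choice, and resting KO and activated WT each had 1 library fewer. Without KO resting 3 and WT activated 3, activation in WT raised 23 members and lowered 1, where 14.9% of all genes were called higher and 12.1% lower. In the KO 9 rose and 0 fell, where 7% were called higher and 0.152% lower. Pcna then rose by 4.30 ± 0.36 in WT (limma adjusted p = 6.36e-07) and by 2.32 ± 0.36 in the KO (adjusted p = 0.000584). The clearest others in WT were Mcm6 (3.69 ± 0.47), Dut (4.16 ± 0.64), Gins1 (4.58 ± 0.72) and Mcm4 (3.53 ± 0.57). In the KO they were Dut (2.71 ± 0.64), Mcm3 (3.26 ± 0.78), Pold1 (3.26 ± 0.79) and Gins2 (3.01 ± 0.74). The difference between these changes was -1.98 ± 0.51 for Pcna (adjusted p = 0.605), and 0 members were called in it. The member called lower in WT was Pole. It had 2 counts in WT activated 1, under the floor of that library, which held the fewest counts of all (388902). In WT activated 2 it had 24 counts, within the 58, 21 and 53 counts of resting WT, so the call rests on WT activated 1. Leaving out WT activated 3 alone gave 21 raised members in WT, where 9.48% of all genes were called higher and 5.28% lower. Leaving out WT activated 1 as well as both others gave 14 raised in WT, where 7.34% were called higher and 1.34% lower, and in the KO 13 raised and 1 lowered, where 8.22% and 2.23% were.

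Activated Pdha1 KO against WT called 0 of 47 members and 0% of all genes by limma, with 3 members and 856 of all genes under an unadjusted 0.05 (1 member by edgeR and 1 by DESeq2, with 0 called). Mcm10 was at 10.3, 7.69 and 9.58 RPM in KO and 0, 5.80 and 5.35 RPM in WT (1.87 ± 0.79), with every KO library above every WT library; of all genes 3.99% were so. Cdc6 lay the other way, at 2.21, 0 and 3.19 RPM against 4.56, 5.80 and 5.35 RPM (-1.74 ± 0.80), and 1.74% of all genes were lower in all pairs. Rpa3 was at 0 in all 3 activated WT libraries and at 2.95, 3.42 and 0 RPM in the KO, close to the floor, so no fold is given. Uhrf1 followed with -0.64 ± 0.53. Several of these values are a few counts each. Without the 2 libraries the smallest p-values belonged to Pcna (-1.52 ± 0.36, limma adjusted p = 0.225) and Mcm6 (-1.57 ± 0.47). The median went from -0.02 to -0.67 while that of all genes went from 0.26 to 0.35. In that fit 11 members were under an unadjusted 0.05, and limma called 0. The number of all genes under 0.05 in that fit is not given here, so the 11 cannot be read as particular to the members.

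At rest 0 of 47 members and 0% of all genes differed between Pdha1 KO and WT by limma, with 2 members and 636 of all genes under an unadjusted 0.05 (2 members by edgeR and 3 by DESeq2, with 0 called). The median was 0.44, and 0.21 without the 2 libraries, and 5 members were higher in all pairs and 0 lower, against 3.89% and 3.57% of all genes. The smallest p-values belonged to Gins1 (2.29 ± 0.96), Mcm4 (1.71 ± 0.79), Prim1 (1.34 ± 0.68) and Rpa3 (1.61 ± 0.87). These rest on few counts. Gins1 had 3, 2 and 12 counts in KO and 0, 1 and 1 in WT, and Mcm4 had 7, 4 and 22 against 3, 1 and 7. Gins1, Mcm4 and Prim1 were highest in KO resting 3, which went against its label. Rpa3 was at or under the floor in every library of both groups. The Pdha1 interaction called 0 members and 0% of all genes by limma, with 0 members and 701 of all genes under an unadjusted 0.05. At that threshold edgeR had 2 members and DESeq2 9. Their numbers over all genes are not given here, so the 9 cannot be read as particular to the members. Gins1 (-2.45 ± 1.35), Uhrf1 (-1.34 ± 0.74), Ung (-0.95 ± 0.54) and Prim1 (-1.54 ± 0.96) had the smallest p-values there. Of 58 other replication genes limma called 0 in activated cells, at rest and in the interaction, with 1, 2 and 2 at an unadjusted p under 0.05. Fbxo5 (1.85 ± 0.85), Dna2 (-0.88 ± 0.44), Msh6 (-1.09 ± 0.69) and Brca1 (1.42 ± 0.90) came first by p in activated cells.

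The rise of the replication genes in WT cells was larger in the Acly cohort than in the Pdha1 cohort for 3 members, Uhrf1, Mcm5 and Cdc45, where 0.0453% of 35290 genes were called higher. For 47 of the 48 the difference was positive, with a median of 2.18 against -0.10 for all genes, and 34 members and 2901 of all genes had an unadjusted p under 0.05. Uhrf1 differed by 3.47 ± 0.63 (limma adjusted p = 0.0129). It was at 13.7, 12.6 and 6.43 RPM in activated and 5.42, 6.27 and 6.01 RPM in resting Pdha1-cohort WT, against 105, 109 and 99.9 RPM in activated WT of the Acly cohort. Mcm5 differed by 2.78 ± 0.55 (adjusted p = 0.0315). It was at 59.4, 59.3 and 21.5 RPM and 19.0, 17.8 and 21.1 RPM in Pdha1-cohort WT, and at 303, 253 and 202 RPM and 18.6, 14.1 and 16.4 RPM in the Acly cohort. Cdc45 differed by 4.31 ± 0.88 (adjusted p = 0.0401). Its values were 4.56, 11.6 and 7.5 RPM and 8.14, 5.23 and 9.02 RPM in Pdha1-cohort WT, and 50.1, 54.9 and 45.2 RPM and 0, 2.82 and 8.94 RPM in the Acly cohort.

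Without the 2 Pdha1 libraries 7 members were called higher in the Acly cohort, where 0.0894% of all genes were. Rrm2 then led with a difference of 4.58 ± 0.51 (limma adjusted p = 4.24e-07), followed by Uhrf1, Mcm5, Rpa2, Mcm10, Ung and Cdc45, while Pcna was not among them. The count moved with many settings, from 0 when only the groups compared were fitted to 16 by DESeq2. It was 0 without any 1 of Acly-cohort WT activated 1 or 2, WT resting 2 or Pdha1-cohort WT resting 3, and 10 without Pdha1-cohort WT activated 1. Receptor background in the libraries labelled activated WT was 26547 to 106049 RPM in the Pdha1 cohort and 30239 to 40501 RPM in the Acly cohort, and red cell genes were at 6243 to 29848 RPM against 47.4 to 93.0 RPM. Their part in the difference was not tested, and the cohort cannot be told apart from anything else that differed between the experiments. In activated cells the difference between the Acly and the Pdha1 effect called 0 of the 48 and 0% of all genes by limma, with 0 members and 1141 of all genes under an unadjusted 0.05 and 1 member each by edgeR and DESeq2, with 0 called. Mcm10 (-1.66 ± 0.90), Cdc6 (1.63 ± 0.90), Tk1 (-1.10 ± 0.69) and Rpa3 (-1.91 ± 1.27) had the smallest p-values.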

How the data were processed

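The authors deposited 1 table of 46981 genes by 24 libraries in RPM, with each column summing to 1000000. GRCm38 and mm10 are named as builds, per the submitters' processing notes. Aligner, counter and annotation: not given in the sources used here. Per the labels' protocols, libraries were made from total RNA by a stranded kit and read from 1 end over 75 bp. Every value above 0 (678237, 100%) came out whole within 0.01 once a correction for collisions among 4096 identifiers was undone, although the labelled protocol names no molecular identifiers. Because the library type is thus unclear, levels were not compared between genes; a ratio of 2 genes within a library was only compared between groups. Strand use in counting is not stated, and 11 of the 48 genes overlap a protein-coding gene on the other strand.

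Symbols came from GENCODE M21 on GRCm38. Tests used limma 3.58.1 in R 4.3.3, with a mean-variance trend and robust variances, on log2(RPM + 0.5), which understates changes of low genes. Genes with at least 1 RPM in 3 libraries of a fit were kept, and p-values were adjusted by Benjamini-Hochberg over all genes kept, with 0.05 as the threshold. Cohorts were fitted separately, with all 24 libraries in contrasts between them. The ± after a log2 change is its standard error, and after a mean the SD. edgeR 4.0.16 and DESeq2 1.42.0 ran on the recovered counts, rounded after the collision correction. Their counts of members under an unadjusted 0.05 are given without those of all genes. Differences between tools in these counts therefore cannot be read as particular to the members. The steps were tested on simulated data. Ratios and figures used Python 3.11.15, numpy 2.4.6, pandas 2.3.3 and matplotlib 3.10.9.

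Named were, in the Acly activation contrasts, the members with the largest and smallest change within each role and Pcna, Mcm2, Rrm2, Tyms and E2f1, and in the other contrasts the members called or the 4 with the smallest p; further genes were chosen after their values were seen. The members and lists were chosen with earlier results of these data known. The planned features of the proteins were not computed. One gene of the wider replication list that the naming rule would give is not reported here. The labels give no origin for the replicate numbers. In the Acly cohort 11 of 18 same-numbered pairs of libraries had deviations from their group means that correlated over 0.1 (median 0.127), and 0 of 36 pairs with different numbers did (median -0.0666). Every same-numbered pair was over 0.1 in Acly KO against WT activated (0.118 to 0.224) and in WT activation in that cohort (0.139 to 0.268). The same held for Pdha1 KO against WT activated (0.181 to 0.551), so the numbers were read as pairs in these comparisons. Elsewhere the libraries share only a number. The reading is weak in the Pdha1 cohort, where pairs with different numbers reached 0.727 and the value of 0.551 involves WT activated 3. The main fits did not use the pairs.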

Additional observations from a re-analysis of the deposited data

Results flagged for a closer look

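Activation of WT cells differed between the cohorts, by a limma test of the difference itself, for 3 of the 48 genes. Of 35290 genes tested, 0.0453% were called higher in the Acly cohort and 0% lower. Uhrf1 rose by 3.47 more on the log2 scale in the Acly cohort than in the Pdha1 cohort. Mcm5 rose by 2.78 more there, and Cdc45 by 4.31 more. In the Pdha1 cohort the library labelled WT activated 3 lay at resting levels for Pcna and Mcm6. Without it and KO resting 3 the values were 3.14, 2.30 and 4.32, and all 3 were called. When only the groups compared were fitted, none of the 3 was called (adjusted p = 0.109, 0.184 and 0.345). With 1 library left out at a time, the call of Cdc45 ended in 17 of 24 limma fits (adjusted p up to 0.149). With 3 libraries a group, single libraries were not screened by a rule for values far from the others. KO resting 3 and WT activated 3 were picked with their values known, and WT activated 1 of that cohort was also left out in 1 setting.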

How the results depend on the processing

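Sparse counts limit all resting levels here: a level under 2.03 to 6.83 RPM cannot be told from 0. The settings varied were pseudocounts, filters and scalings, edgeR, DESeq2, a covariate for receptor background, a replicate block, and libraries left out; fitting only the groups compared was not run for either interaction, where it is the same fit. The cause of the shifts given next was not tested. The median of the 48 genes in WT activation (Acly cohort) was 3.19, and 2.98 with a pseudocount of 1, 3.57 with TMM-style scaling, 2.92 with quantile normalization, 3.70 by edgeR and 3.63 by DESeq2. In the KO it was 2.91, and 3.39, 3.60 and 3.62 with TMM, edgeR and DESeq2, and 2.60 to 3.03 with 1 library left out. The covariate called 1 member in WT and 0 in the KO, with the share of all genes called not given here. It turned Tyms to 0.54 and 0.62 and, in the KO, Cdc6 to -0.65. Prim2, uncalled, was -0.13 in WT with quantile normalization and -0.069 to 0.77 with 1 library left out. In the KO Prim2 was 0.44, 0.49, 0.48 and 3.80 with TMM, edgeR, DESeq2 and the covariate and -0.28 to 0.12 with 1 left out. There Chaf1a was 0.00062 with a pseudocount of 0.1, 0.49, 0.52, 0.52 and 1.16 with the same 4 settings, and -0.24 to 0.24 with 1 left out.

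For activated Acly KO against WT the median was -0.00096, -0.021 and -0.040 with quantile normalization, edgeR and DESeq2, and -0.21 to -0.052 with 1 library left out. At rest, leaving out 1 library called 0 to 1 members (1 without KO resting 1 or WT resting 3). In Pdha1-cohort activation the calls in WT were 11 by DESeq2, 24 and 14 without the 2 or 3 libraries, and 0 to 21 with 1 left out. In the KO they were 9 and 14 without 2 or 3. The median of activated Pdha1 KO against WT was -0.67 without the 2, and -0.67 to 0.22 with 1 left out. That of the Pdha1 interaction was -1.07 by edgeR, -1.39 by DESeq2 and -1.11 to -0.13 with 1 left out. The Acly minus Pdha1 effect had a median of 0.38 by DESeq2, 0.43 without the 2, and -0.48 to 0.43 with 1 left out. The WT activation difference between cohorts called 3, and 1 and 6 with pseudocounts of 0.1 and 1, 11 with TMM, 1 with quantile normalization, 0 with only the groups compared, 6 by edgeR, 16 by DESeq2, 12 with the covariate, 7 and 5 without 2 or 3 libraries, and 0 to 10 with 1 left out. Its median was 1.68 with the covariate, 1.64 and 1.69 without 2 or 3, and 1.64 to 2.48 with 1 left out. Over all genes it called 0.0453% higher in the main fit, 0.017% with a pseudocount of 0.1 and 0.0894% without the 2 libraries. Shares under the other settings are not given here. Whether the moves in these counts are particular to the 48 genes was not tested.

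With the replicate number as a block, the cohort difference called 1 member, and no other count of called members moved, the comparisons read as paired included. In the Pdha1 cohort 6 of 18 same-numbered pairs correlated over 0.1, and 15 of 36 with different numbers did.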
